A study of Mus musculus with 6 samples.

Results

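A group of 32 genes of DNA replication and of the entry into S phase was followed in BV-2 cells with and without lipopolysaccharide (LPS). BV-2 is a mouse microglial line immortalised by a retrovirus carrying raf and myc oncogenes, so every group shares that transformation and the cells cycle in culture. The 3 control arrays are from cells labelled as resting, and the 3 LPS arrays are from cells given LPS of serotype O111:B4 at 1 µg/mL for 24 h. Cells were kept in medium with 5% serum and plated for the experiment in medium with 2.5% serum, and neither the time at which controls were collected nor the number of separate cultures is given in the sources used here. Members were taken by gene name, from a list chosen with earlier results of these data known. A gene was used if a row of the value table named that gene and no other, and the row with the highest mean over the 6 arrays stood for the gene. This gave 30 of the 32 listed genes, out of 22180 genes with a row of their own and 41345 rows in all. Rfc4 and Ccne2 had no such row and are described from the rows they share with another gene.

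Replication starts in G1, when Cdc6 and Cdt1 load the ring of Mcm2 to Mcm7 onto origins, a step called licensing. In S phase the ring is joined by Cdc45 and the GINS complex to form the active helicase, and polymerases held by the PCNA clamp copy the strands, while ribonucleotide reductase and thymidylate synthase supply the nucleotides. Most of these genes are transcribed at the G1/S boundary by E2F factors, which are released when cyclin D and cyclin E kinases phosphorylate the retinoblastoma protein, and p21 (Cdkn1a) inhibits those kinases and binds PCNA. In macrophages, LPS is known as a signal that can slow the cell cycle.

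The E2F motif was looked for because E2F factors are known to act on many replication genes at the G1/S boundary. The search covered RefSeq promoters (GRCm38.p6), each running from 250 bases before to 50 after a transcript start. The forms searched were TTTCCCGC, TTTCGCGC, TTTGCCGC and TTTGGCGC on either strand, and forms on opposite strands can overlap. A promoter was at hand for 26 of the 32 genes, and 11 of these 26 held the motif (42.3%), against 704 of 27025 genes with a promoter (2.6%). The median share of G and C bases was 59.9% in the members' promoters and 52.8% in all, and the comparison was not matched for it. By role, it was present in 4 of 5 MCM genes and 2 of 4 licensing and activation genes. Clamp, polymerase and ligation genes had it in 4 of 8, and nucleotide genes in 0 of 5. In the group of G1/S regulators and methylation maintenance it was in 1 of 4, and that gene was Uhrf1, of methylation maintenance. Among genes outside the members, 12 of 38 other fork and origin genes (31.6%) and 8 of 21 other G1/S regulators (38.1%) held it. Other nucleotide supply genes had it in 1 of 20 and p53 target genes in 0 of 15. A match describes these letters in this window and is not evidence of binding. The windows that follow lie before the start in MCM, licensing, polymerase and methylation maintenance genes, written 5′ to 3′ along the gene's strand. A match to the motif or its reverse complement is in capitals. In the Mcm5 window a further match, to TTTGGCGC on the opposite strand at -149, overlaps the marked match and is only partly in capitals.

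Mcm5: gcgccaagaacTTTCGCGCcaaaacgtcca
Mcm6: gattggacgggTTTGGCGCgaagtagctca
Mcm7: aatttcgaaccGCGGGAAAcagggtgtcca
Cdc6: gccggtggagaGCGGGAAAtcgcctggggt
Pola1: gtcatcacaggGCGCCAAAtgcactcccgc
Uhrf1: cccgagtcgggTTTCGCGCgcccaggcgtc

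They lie at chr8:75109345-75109374 on the plus strand for Mcm5, chr1:128359734-128359763 on the minus strand for Mcm6 and chr5:138172030-138172059 on the minus strand for Mcm7. Those of Cdc6, Pola1 and Uhrf1 lie at chr11:98908002-98908031 (plus), chrX:93632275-93632304 (minus) and chr17:56304117-56304146 (plus). The first motif base is at -153 for Mcm5, -47 for Mcm6 and -165 for Mcm7, counted from the transcript start as 0, and at -138 for Cdc6 and Pola1 and -185 for Uhrf1. The 11 genes with the motif, all of which had a row, had a median log2 fold change of 0.02 after LPS, and the 14 genes with a promoter and a row but no motif had 0.03. After quantile normalization of the arrays these medians were -0.19 and -0.15.

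The values are log2 expression values, so a difference of 1 is a 2-fold change, and fold changes are LPS over control throughout. Levels of different genes are not compared with each other, since each row has probes of its own. All 30 members had a mean above 3.08, the 95th percentile of 1453 rows named for olfactory, vomeronasal and taste or trace amine receptors, which served as a guide to background. Of 10 microglia and macrophage markers 9 were above that level, Cd68 and Csf1r among them, and Tmem119 was not, at 2.50 to 2.87 on the 6 arrays. Of astrocyte, neuron, oligodendrocyte and lymphocyte markers with a row, 0 of 4, 1 of 5 (Rbfox3), 0 of 3 and 0 of 3 were above it. The cells responded to LPS: Il1b went from 3.63 ± 0.77 to 9.06 ± 0.32 (SD, n = 3; adjusted p = 0.0073). Control replicate 2 correlated with control replicates 1 and 3 at 0.960 and 0.959 over all rows, while those 2 correlated at 0.982, and the members that change sign without it are given both ways.

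No replication gene changed in expression with LPS at the threshold used. In the limma fit over all rows, 0 of 30 members had an adjusted p under 0.05 (percent called over all rows 0.193%, all of them higher after LPS), and at an unadjusted p under 0.05 the count was 1 of 30, against 6.38% of all rows and 12.6% of genes of similar level, meaning the 9050 genes whose mean lies in the members' range. The lowest adjusted p of a member was 0.76. Of the 30 log2 fold changes 16 were above 0 and 14 below (71.1% of genes of similar level were above), from -0.34 for Ccnd1 to 0.45 for Mcm10, so that each was within 0.5 of 0. That window held 84% of the genes of similar level. The 95% interval of the change was inside 1 log2 unit on either side of 0 in 29 of 30 members, the exception being Cdkn1a, and in 70.8% of those 9050 genes. The arrays thus left room for changes smaller than 2-fold in these genes. Over the settings tried, the count of such intervals was 26 to 29.

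The sign of the members' median log2 fold change turned with quantile normalization and without LPS replicate 2, but not with median centring. The members' median log2 fold change was 0.02 in the deposited values, beside 0.03 for all rows and 0.14 for the 9050 genes of similar level. With arrays centred on their medians it was 0.01, and 16 of 30 members were above 0. After quantile normalization it was -0.18, with 28 of 30 members below 0, beside -0.02 for all rows and for the genes of similar level, of which 53.3% were below 0. Without LPS replicate 2 the members' median was -0.10 and 22 of 30 were below 0. Genes of similar level then had a median of 0.10, with 35.4% below 0. The members' median without control replicate 2 was 0.04, beside 0.02 for genes of similar level. Without control replicate 2, 7 members changed sign, none of them called: Cdc6 (to 0.10), Pole (0.05), Fen1 (0.12) and Uhrf1 (0.04) went above 0, and Tk1 (-0.03), Ccne1 (-0.10) and Cdkn1a (-0.73) below. No member passed with any of these scalings. After quantile normalization 4 members had an unadjusted p under 0.05, each with a value below 0 (3.12% of all rows and 5.75% of genes of similar level under that rule): Mcm4 (-0.47), Mcm7 (-0.52), Dut (-0.45) and Ccnd1 (-0.51), with adjusted p from 0.43 to 0.65.

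**Figure D1:**
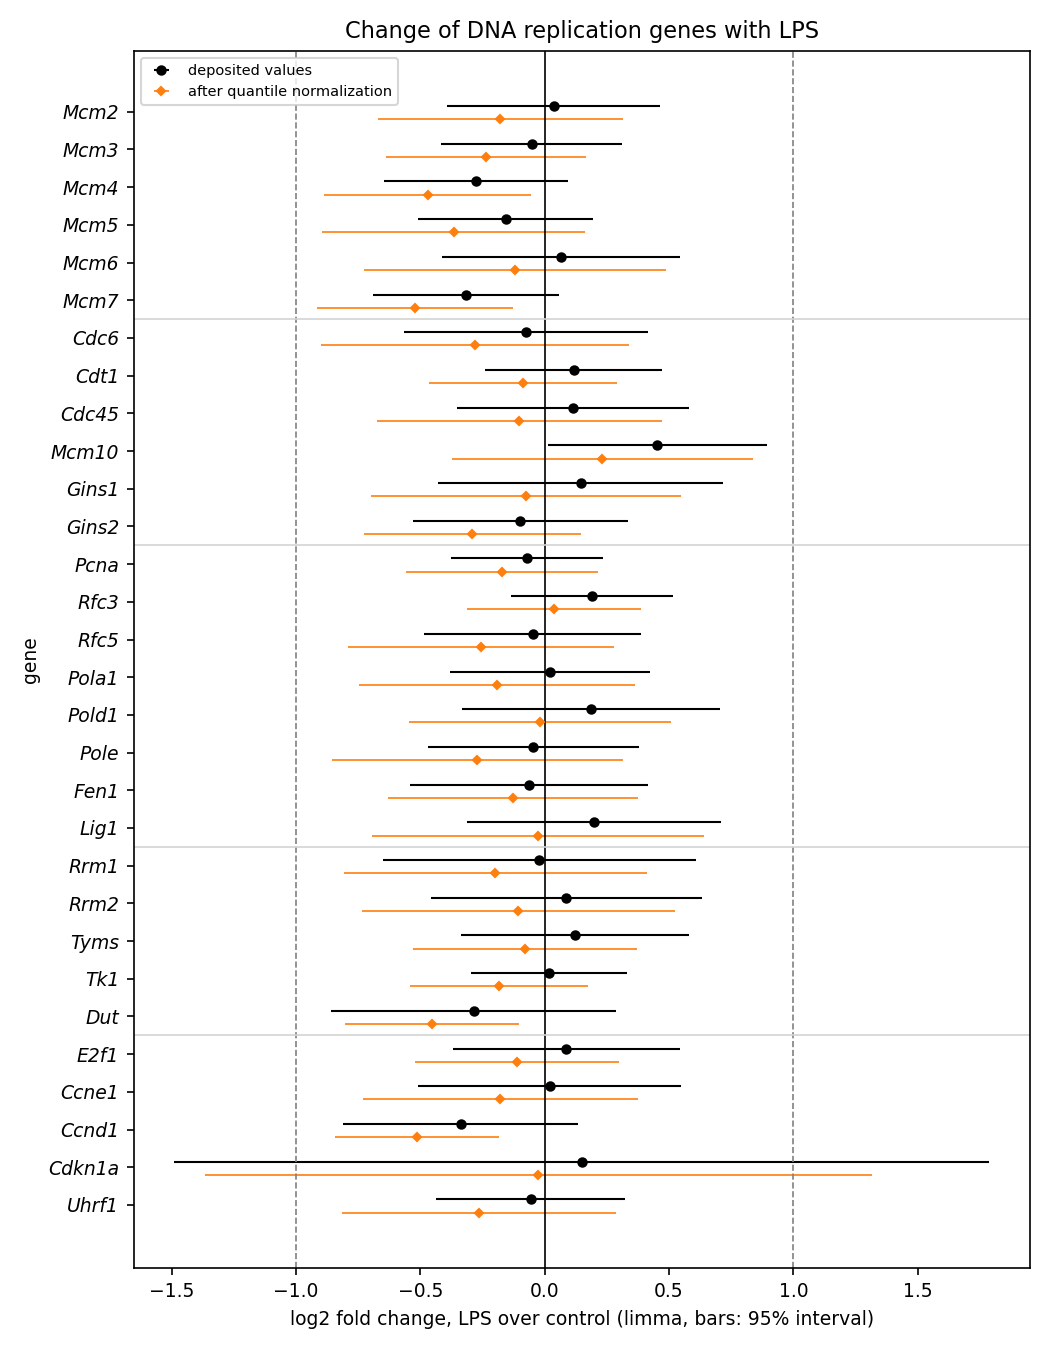
Log2 fold change of each of the 30 replication genes, LPS over control, with its 95% interval from limma (horizontal axis, log2 units; n = 3 arrays per group), for the deposited values (circles) and after quantile normalization of the arrays (diamonds); dashed lines mark 1 log2 unit. All intervals of the deposited values except that of Cdkn1a lie between the dashed lines, and 28 of 30 diamonds lie below 0.

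The 6 subunits of the MCM helicase had log2 fold changes between -0.32 and 0.06, with a median of -0.10. Mcm7 read 7.17, 6.90 and 7.17 in control replicates 1 to 3 and 6.77, 6.92 and 6.60 in LPS replicates 1 to 3. The groups met only where LPS replicate 2 was just above control replicate 2, and the log2 fold change was -0.32 (SE 0.16, adjusted p = 0.87), or -0.40 without control replicate 2 (adjusted p = 0.55). Mcm4 read 7.48, 7.40 and 7.59 in the controls and 7.10, 7.45 and 7.10 after LPS, so that its log2 fold change was -0.28 with an SE of 0.16 (adjusted p = 0.92). LPS replicates 1 and 3 were below every control, and LPS replicate 2 was within the control range. Mcm5 had controls of 6.96, 7.19 and 6.99 and LPS values of 6.76, 7.05 and 6.87, and Mcm3 had controls of 7.74, 7.71 and 7.88 and LPS values of 7.54, 7.93 and 7.71. Mcm2 and Mcm6, with log2 fold changes of 0.04 and 0.06, had LPS values on both sides of the controls. For Mcm6, the controls at 7.91, 7.96 and 7.90 were bracketed by LPS values of 7.98, 8.35 and 7.63. In all 6 subunits LPS replicate 2 was the highest LPS array, and the SD of Mcm6 was 0.03 in controls and 0.36 after LPS.

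Among the genes that load and start the helicase, Mcm10, which helps to activate the assembled helicase, had the largest difference of the 30 members. Its values were 5.55, 5.90 and 5.34 in the controls and 5.99, 6.21 and 5.94 after LPS, a difference of 0.45 on the log2 scale (SE 0.18, unadjusted p = 0.045, adjusted p = 0.76). All LPS values were above all controls, by a margin of a few hundredths over control replicate 2. Without that array the log2 fold change was 0.60 (adjusted p = 0.34), and after quantile normalization it was 0.23 (adjusted p = 0.97). The loading factors Cdc6 and Cdt1 had log2 fold changes of -0.07 and 0.12, each with an adjusted p = 0.996. Cdc6 read 5.11, 5.74 and 5.29 in controls and 5.09, 5.46 and 5.35 after LPS, and the LPS values lay within or beside the control range. Cdt1 read 6.88, 6.87 and 7.01 in controls and 6.83, 7.12 and 7.16 after LPS. Cdc45 and the GINS subunits Gins1 and Gins2, which complete the helicase, had log2 fold changes of 0.12, 0.14 and -0.10. Cdc45 and Gins1 were most spread after LPS, with SDs of 0.34 and 0.41, and in both LPS replicate 2 was high, at 6.67 and 6.79, and LPS replicate 3 low, at 6.03 and 5.99.

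Groups without overlap were seen for 2 of the 30 members, Mcm10 and the clamp loader subunit Rfc3, both with LPS above control, against 11.2% of all rows and 17% of the genes of similar level. Rfc3 read 4.83, 4.80 and 4.98 in the controls and 4.99, 5.19 and 5.00 after LPS, so that its log2 fold change was 0.19 with an SE of 0.14 (adjusted p = 0.98). The gap between LPS replicate 1 and control replicate 3 was smaller than the SD of either group, 0.09 and 0.11.

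At the fork itself the clamp Pcna, which encircles DNA behind the primer end and tethers polymerases, was the steadiest member of the set by its standard error. It read 9.70, 9.79 and 9.67 in controls and 9.57, 9.72 and 9.67 after LPS, a log2 fold change of -0.07 (SE 0.13) with a 95% interval from -0.38 to 0.24. The catalytic subunits of the polymerases, Pola1 for priming, Pold1 for the lagging strand and Pole for the leading strand, had log2 fold changes of 0.02, 0.19 and -0.05. Pold1 controls were 5.48, 5.51 and 5.12 and its LPS values 5.23, 5.92 and 5.53, so that LPS replicates lay on both sides of most controls. Of the Okazaki fragment enzymes, the ligase Lig1 had a log2 fold change of 0.20 (SE 0.21), from controls that read 5.53, 6.12 and 5.59 and LPS values that read 5.72, 6.19 and 5.92. The second control was as high as the LPS arrays, and without control replicate 2 its log2 fold change was 0.38 (adjusted p = 0.66). The flap endonuclease Fen1 read 3.74, 4.16 and 3.46 in controls and 3.64, 3.80 and 3.73 after LPS, a log2 fold change of -0.06, and its LPS values lay within the control range. The clamp loader subunit Rfc5 had a log2 fold change of -0.05. The row that Rfc4 shares with Eif4a2, a translation factor gene, read 7.78, 7.15 and 7.22 in controls and 7.57, 7.65 and 6.90 after LPS, and cannot be assigned to either gene.

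Of the 5 nucleotide supply genes, Dut, which hydrolyses dUTP and so keeps uracil out of DNA, had the lowest log2 fold change, -0.28 (SE 0.24, adjusted p = 0.99). It read 6.18, 5.54 and 6.24 in controls and 5.42, 5.78 and 5.92 after LPS. Control replicate 2 lay among the LPS values, and without it all LPS values were below the other controls, at a log2 fold change of -0.51 (adjusted p = 0.52). The ribonucleotide reductase subunits Rrm1 and Rrm2 had log2 fold changes of -0.02 and 0.09, or -0.17 and 0.29 without control replicate 2. Rrm1 read 8.36, 7.97 and 8.45 in controls and 8.35, 8.65 and 7.74 after LPS, and Rrm2 read 4.97, 5.37 and 4.54 and then 4.90, 5.11 and 5.13. These subunits of 1 enzyme differed in control replicate 2, where Rrm1 was the lowest control and Rrm2 the highest. Thymidylate synthase (Tyms) and thymidine kinase (Tk1), which make thymidine nucleotides anew and by salvage, had log2 fold changes of 0.12 and 0.02. Tk1 was narrow in both groups, at 6.69, 6.50 and 6.60 in controls and 6.55, 6.68 and 6.61 after LPS, with a 95% interval from -0.30 to 0.33.

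The member with the widest spread was Cdkn1a, which codes for p21. It read 8.95, 6.32 and 8.95 in controls and 8.19, 8.25 and 8.23 after LPS, so that control replicate 2 was 2.63 log2 units under the mean of the other controls while the LPS arrays lay within a few hundredths of each other. With all arrays the log2 fold change was 0.15 (SE 0.69, adjusted p = 0.996), with a 95% interval from -1.49 to 1.79 that leaves both directions possible. Without control replicate 2 it was -0.73 (SE 0.14, 95% interval -1.07 to -0.39, unadjusted p = 0.0020, adjusted p = 0.18), and every LPS value was below both remaining controls. Without control replicate 1 or 3 it was 0.59, and after quantile normalization of all arrays it was -0.03. The direction of Cdkn1a in this series thus rests on 1 array, and no fit called it.

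Cyclin D1 (Ccnd1), which carries growth factor signals to the G1 kinases, had the lowest log2 fold change of the members, -0.34 (SE 0.20, adjusted p = 0.93). It read 6.15, 5.73 and 6.41 in controls and 5.70, 5.74 and 5.83 after LPS. LPS values were close together and below control replicates 1 and 3, and control replicate 2 lay among them. Without control replicate 2 the value was -0.52 (adjusted p = 0.39). The cyclin E gene Ccne1 had a log2 fold change of 0.02, with controls of 6.35, 5.999 and 6.40 and LPS values of 6.39, 6.55 and 5.86. The row that Ccne2 shares with Ints8 had 0.23 (adjusted p = 0.996). The transcription factor E2f1 read 6.31, 6.17 and 6.24 in controls and 6.04, 6.26 and 6.68 after LPS, a log2 fold change of 0.09 (SE 0.19), and its LPS values lay on both sides of the controls. Uhrf1, which brings the maintenance methyltransferase to newly copied DNA, had -0.06 (SE 0.16).

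**Figure D2:**
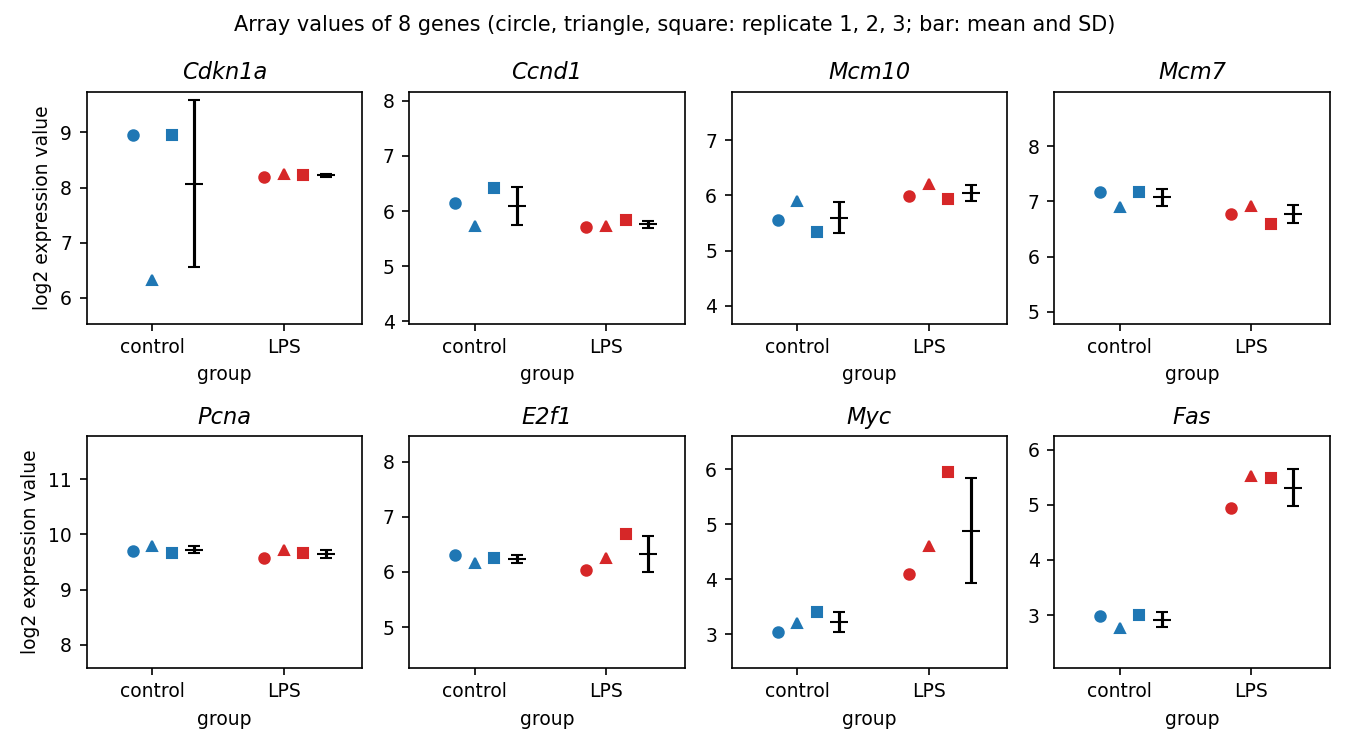
Log2 expression values (vertical axis, same span in each panel) of 6 replication genes and of Myc and Fas in 3 control (blue) and 3 LPS (red) arrays; symbols mark replicates 1 to 3 and black bars the mean and SD. Control replicate 2 of Cdkn1a stands at 6.32 below all other arrays, and Fas is the gene of these 8 that passed the test.

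The members' log2 fold changes had a median size of 0.09 and a median SE of 0.19. For single arrays, the members' median SD within a group was 0.23. The map of deviations from the control mean shows the array values. LPS replicate 2 was the highest LPS array in 23 of 30 members, against 49.3% of the 9050 genes of similar level. It was above LPS replicate 1 in 29 of 30 members, as in 89.1% of those genes, and above LPS replicate 3 in 24 of 30, where those genes had 52.7%. LPS replicate 2 was also the highest LPS array in 33 of 45 other fork and origin genes and 15 of 20 other nucleotide supply genes. The counts were 14 of 28 for other G1/S regulators and 7 of 16 for p53 target genes. Members were not as low in control replicate 2 as genes of similar level were. Their median difference from the mean of the other controls was -0.08, against -0.41, and control replicate 2 was above both other controls in 12 of 30 members (14.7% of the genes of similar level) and below both in 16 (74.4%). Those higher by over 0.5 were Rrm2 (0.62), Fen1 (0.56), Lig1 (0.55) and Cdc6 (0.54), and those lower by over 0.5 were Cdkn1a (-2.63), Dut (-0.67) and Ccnd1 (-0.56), all named after their values were seen. Differences between single arrays have no replicate check.

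**Figure D3:**
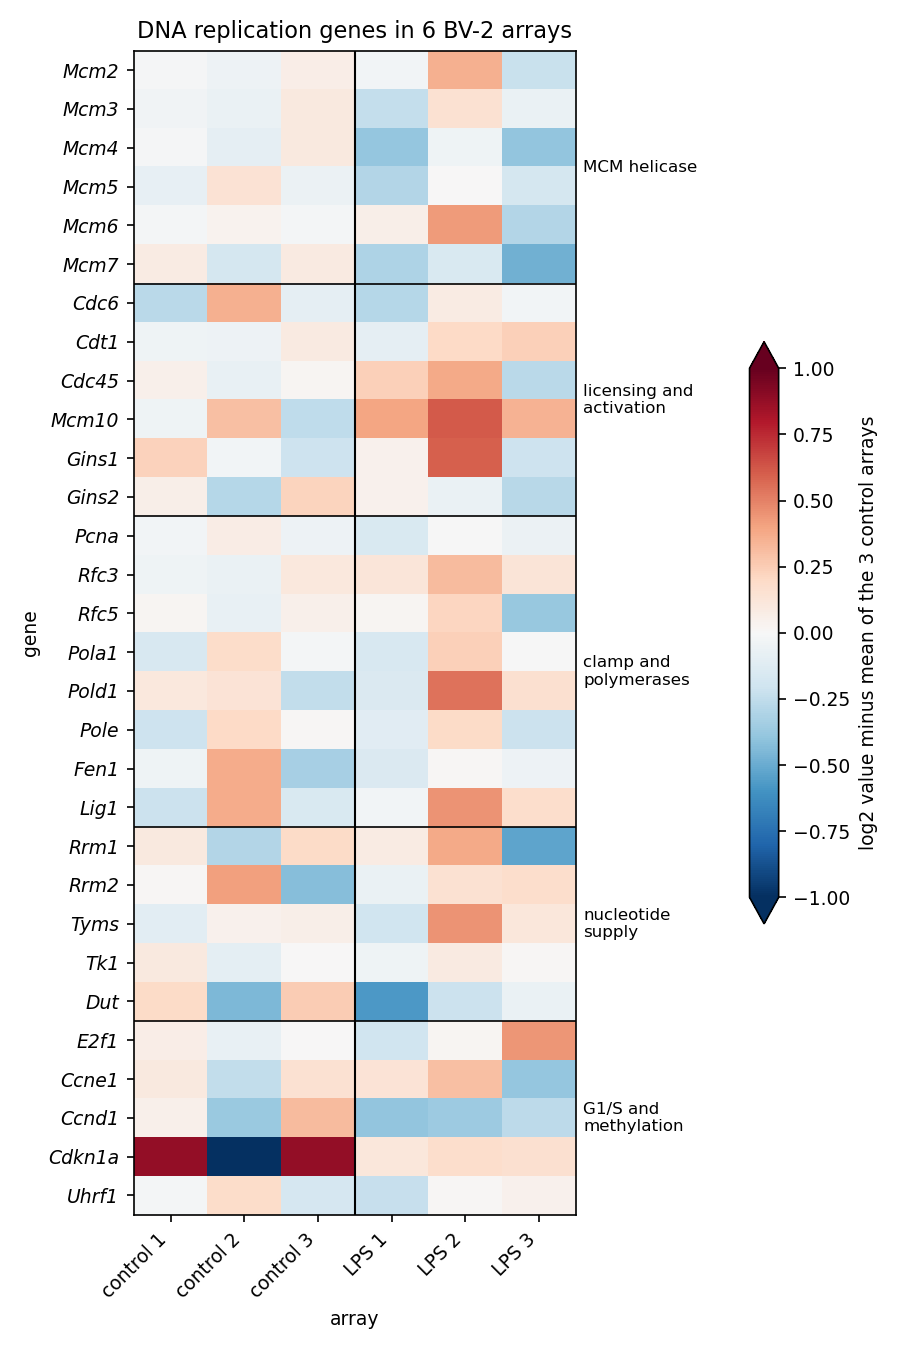
Deviation of each array (columns) from the gene's mean over the 3 control arrays in log2 units (colour, cut at 1 on either side), for the 30 replication genes ordered by role. The columns of LPS replicate 2 and of the other LPS arrays differ visibly in most rows, and the Cdkn1a row has the strongest colours, in the controls.

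**Figure D4:**
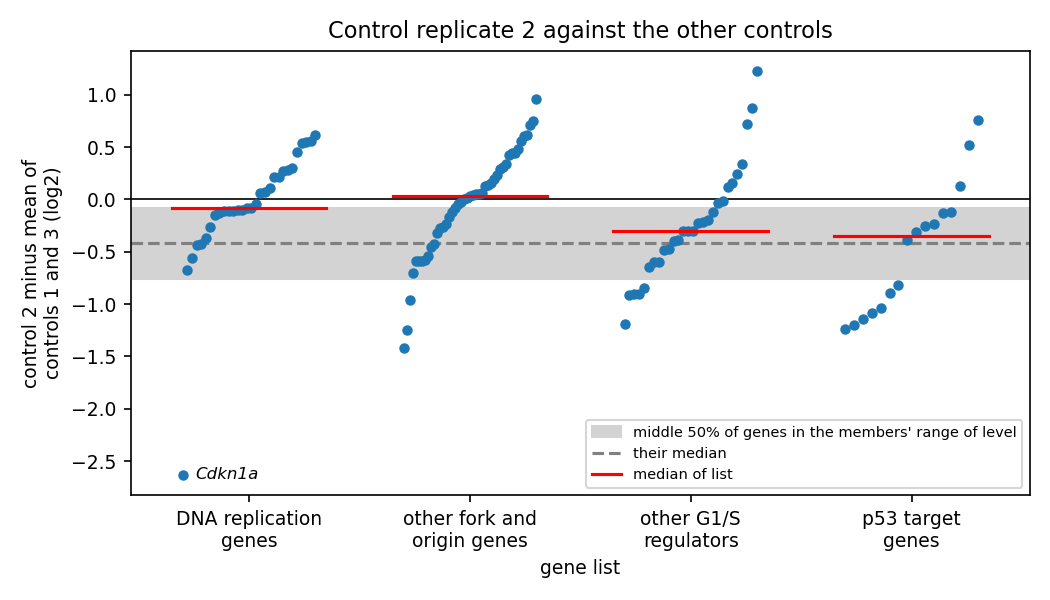
Control replicate 2 minus the mean of control replicates 1 and 3 (vertical axis, log2 units) for each gene of 4 lists, with the list median (red) and the middle 50% of genes in the level range of the replication genes (grey band, dashed median of -0.41). The replication genes have a median of -0.08, and Cdkn1a lies at -2.63.

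Other genes of the same pathways gave like counts. Of 45 further replication fork and origin genes with a row, 0 passed in limma, and at an unadjusted p under 0.05 3 were higher and 0 lower, where 4.98% and 1.4% of all rows, and 11.3% and 1.22% of genes of similar level to the members, were higher and lower. The 3, chosen after their values were seen, were the origin recognition subunits Orc2 (0.56, adjusted p = 0.74) and Orc4 (0.43, adjusted p = 0.74) and the MCM-related gene Mcm9 (0.55, adjusted p = 0.66). The list had a median log2 fold change of 0.15, near the 0.14 of genes of similar level to the members, with 32 of 45 above 0. Its members with the highest mean, the checkpoint scaffold Topbp1, the maintenance methyltransferase Dnmt1 and the primase subunit Prim2, had 0.22, 0.24 and 0.14, each with an adjusted p of 0.94 or more. Of 20 further nucleotide supply genes 0 passed, with a median of 0.01, and unadjusted p-values under 0.05 were found for 1 gene with a value above 0, the mitochondrial folate enzyme Mthfd2 (0.62, adjusted p = 0.43), and 1 below 0, the nucleoside diphosphate kinase Nme1 (-0.71, adjusted p = 0.67), both named after their values were seen. Paics, Samhd1 and Shmt2, those with the highest mean, had -0.14, 0.47 and 0.11.

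Of 28 further G1/S regulators 0 passed, with a median of 0.03, and 2 were higher and 0 lower at an unadjusted p under 0.05. By that rule 4.98% of all rows were higher and 1.4% lower, and 11.3% and 1.22% of genes of similar level to the members. The 2 higher genes were Myc and the ubiquitin ligase subunit Fbxw7 (0.47, adjusted p = 0.55), named after their values were seen. Myc, a transcription factor that drives growth and entry into the cycle, read 3.05, 3.21 and 3.41 in controls and 4.10, 4.61 and 5.94 after LPS. All LPS values were above the controls, which lay near the background level, but LPS replicate 3 was far above the other LPS arrays and the log2 fold change of 1.66 (SE 0.45) had an adjusted p = 0.45 (0.17 to 0.93 over the alternatives). The kinase genes Cdk4 and Cdk6 and the cyclin gene Ccna2 had -0.11, 0.09 and -0.06.

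Of 16 p53 target genes with a row, listed as neighbours of Cdkn1a in the damage response, 1 rose and 0 fell at the adjusted threshold, against 0.193% of all rows. It was the death receptor Fas, whose transcription is also driven by inflammatory signals, and which read 2.99, 2.76 and 3.00 in controls and 4.94, 5.53 and 5.48 after LPS, a difference of 2.40 on the log2 scale with an SE of 0.20 (adjusted p = 0.012). Its control values lay under the background guide of 3.08, so the size of the change rests on a dim signal, and the call was lost without control replicate 1, control replicate 3 or LPS replicate 2, and with the replicate number as a block (adjusted p from 0.0026 to 0.18 over the alternatives). The genes of the list with the highest mean, the kinase gene Plk2 (1.48, adjusted p = 0.28), the cyclin gene Ccng1 (0.19, adjusted p = 0.996) and Mdm2, the ubiquitin ligase that degrades p53 (0.84, adjusted p = 0.69), did not pass. Mdm2 read 6.73, 6.16 and 7.24 in controls and 7.38, 7.33 and 7.94 after LPS, without overlap. At an unadjusted p under 0.05, 5 of the 16 were higher (Fas, Plk2, Mdm2, Zmat3 at 0.69 and Ei24 at 0.38) and 1 lower (Sesn1 at -0.82), with Zmat3, Ei24 and Sesn1 named after their values were seen. By that rule 4.98% of all rows were higher and 1.4% lower. Of genes of similar level to the members, 11.3% were higher and 1.22% lower. The list had a median of 0.23, beside 0.03 for all rows and 0.14 for genes of similar level to the members.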

How the data were processed

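Per the submitters' processing notes, the authors made the values with Affymetrix Expression Console, and the deposited table holds 1 log2 expression value per transcript cluster and array. Its version, background correction and normalization are not given in the sources used here, and the log2 scale was read from the values. Array medians ran from 2.88 to 2.97, and the number of arrays limits precision. Of 41345 rows 23521 named 1 gene in the platform annotation, and 23328 of these matched RefSeq by gene identifier. LPS was compared with control on 3 arrays each in limma 3.58.1 (R 4.3.3, lmFit and eBayes) across all rows with no filter, with Benjamini-Hochberg adjustment over all rows and a threshold of 0.05. The fit was tested on simulated data. P-values measure the spread between arrays, which may be technical. Members, gene lists and the rule for named genes (all members; in each further list, up to 4 called genes and the 3 with the highest mean) were chosen with earlier results of these data known. Genes of similar level are the 9050 genes whose mean lies between the lowest and highest member mean.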

Additional observations from a re-analysis of the deposited data

How the results depend on the processing

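Under each of the 15 alternatives (arrays scaled by quantiles or by medians, only rows above background, only rows naming 1 gene, a gene's rows averaged, an intensity trend with robust estimation, array weights, a replicate block, each array left out in turn, and control replicate 2 and LPS replicate 3 left out together), 0 members were called, and so were 0 of the further fork, nucleotide and G1/S genes. The members' median ran from -0.18 after quantile normalization to 0.08 with both arrays left out. Between 0 and 14 members changed sign, none of them called. At an unadjusted p under 0.05 there were 0 to 5 members, 5 of them without control replicate 2. The number of p53 target genes called was 0 with the replicate block, and ranged from 0 to 1 over fits with 1 array left out. Same-numbered arrays deviated from their group means with correlations of 0.069, -0.26 and -0.22, so the numbers were not taken to pair them. The replicate block left the members' median at 0.02 and lowered the calls over all rows from 80 to 7, and the cause was not tested.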

Other observations

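In control replicate 2 the p53 target genes were placed much as genes in the level range of the replication genes were: 12 of 16 were lower there than in both other controls, where 74.4% of those genes were, and the median difference was -0.35 beside -0.41. Cdkn1a, at -2.63, lay beyond their 5th percentile of -1.33. Of the further lists, 19 of 45 fork and origin genes, 14 of 20 nucleotide supply genes and 19 of 28 G1/S regulators were below both other controls, and 18, 4 and 7 were above both. Their median differences were 0.04, -0.26 and -0.30. This compares 1 array with 2 and has no replicate check.

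Some replication genes had more than 1 row. The rows not used were those of Fen1 (mean 3.07), Dut (2.76), Pole (2.86) and Rrm2 (1.77), all under the background guide of 3.08, with log2 fold changes of -0.36, 0.29, -0.31 and 0.02 and adjusted p of 0.85 or more. Rows shared by Mcm7 with the microRNAs of its introns, Mir25 and Mir93, had log2 fold changes of -0.10 and -0.14 and cannot be assigned to either.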
